A study of Mus musculus with 5 samples.

Results

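The genes described here encode the protein subunits of the mitochondrial ribosome. They were taken as all probes whose gene symbol starts with Mrpl or Mrps followed by a number, which gave 104 probes for 73 of the 14654 gene symbols on the array. By symbol, 45 belong to the large subunit (Mrpl) and 28 to the small subunit (Mrps). A value on all 5 arrays was available for 70 of the 73 genes, 42 of the large and 28 of the small subunit, and these 70 were tested within the 9000 genes of the series that met the same condition. The other 3 are Mrpl15, Mrpl21 and Mrpl45. Mrpl15 lay at -4.94 on knockout array 2 and at -1.20, -0.64 and -0.95 on the heterozygous arrays, and was blank on knockout array 1. Mrpl21 (-0.54 and -0.03) and Mrpl45 (-0.07 and 0.26) had values on knockout array 2 and heterozygous array 3 alone.

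Mitochondria make a small set of proteins, all of them core subunits of the oxidative phosphorylation machinery, on ribosomes of their own. The RNA of these ribosomes is transcribed from mitochondrial DNA, whereas every protein subunit is encoded in the nucleus, made in the cytosol and imported. Some subunits descend from bacterial ribosomal proteins and others were acquired by mitochondria, and the large subunit joins amino acids while the small subunit reads the messenger RNA.

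Each array compared the spleen of a mutant mouse, labelled with Cy5, with a pool of wild-type spleen RNA labelled with Cy3, using 15 ug of amplified RNA per dye. Of the mutant spleens, 2 were Sirt6-/- and 3 were Sirt6-/- RelA+/-, so all 5 lacked Sirt6, and no spleen with the Rela change alone was measured. SIRT6 is a sirtuin that removes acetyl groups from histones, and the product of Rela, p65, is a subunit of the transcription factor NF-kB, which SIRT6 is known to bind. The sources used here do not give strain, age, sex, the number of animals in the pool or how the alleles were made. The design asks how a spleen without Sirt6 differs from wild type, and whether the loss of a Rela copy changes that difference. Values are log2 ratios of mutant over pool, centred on the median of each array, so 0 is the level of the pool. No source used here gives the log base or the direction of the ratio, which were read from the range of the values and the dye labels.

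The check of the labels was incomplete. Sirt6 had a single value, -4.31 on heterozygous array 2. Rela lay at 0.48 and 1.08 on the knockout arrays, at 1.15 on the array labelled heterozygous 1, and at -0.08 and -0.20 on heterozygous arrays 2 and 3. The array labelled heterozygous 1 thus had Rela at the level of the knockout arrays, and it is called by its label throughout; whether the probe lies in the altered part of Rela is not given. The Y-linked genes Uty and Kdm5d lay between 2.07 and 2.96 on all 5 arrays, so that sex and genotype cannot be told apart in any comparison with the pool. The array labelled heterozygous 1 had the fewest spots with a value (19768, against 21838 to 22871 on the others) and the widest spread over genes (SD 1.29, against 0.76 to 1.12). In whole spleen, fewer cells of a type and less RNA per cell cannot be told apart, and ratios do not show whether a marker gene of spleen is present or absent in a sample.

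Mitoribosomal transcripts lay below the pool in the Sirt6 knockout spleens and near it in 2 of the 3 spleens that were also heterozygous for Rela. The median of the 70 genes was -0.38 and -0.64 on the knockout arrays. It was -0.59 on the array labelled heterozygous 1, and 0.03 and 0.15 on heterozygous arrays 2 and 3. The same arrays had medians over all 9000 genes between -0.06 and 0.05. On the knockout arrays 59 and 60 of the 70 genes lay below the pool, on the array labelled heterozygous 1 55 did, and on heterozygous arrays 2 and 3 32 and 24 did. The median of the array labelled heterozygous 1 thus fell between those of the knockout arrays.

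**Figure D1:**
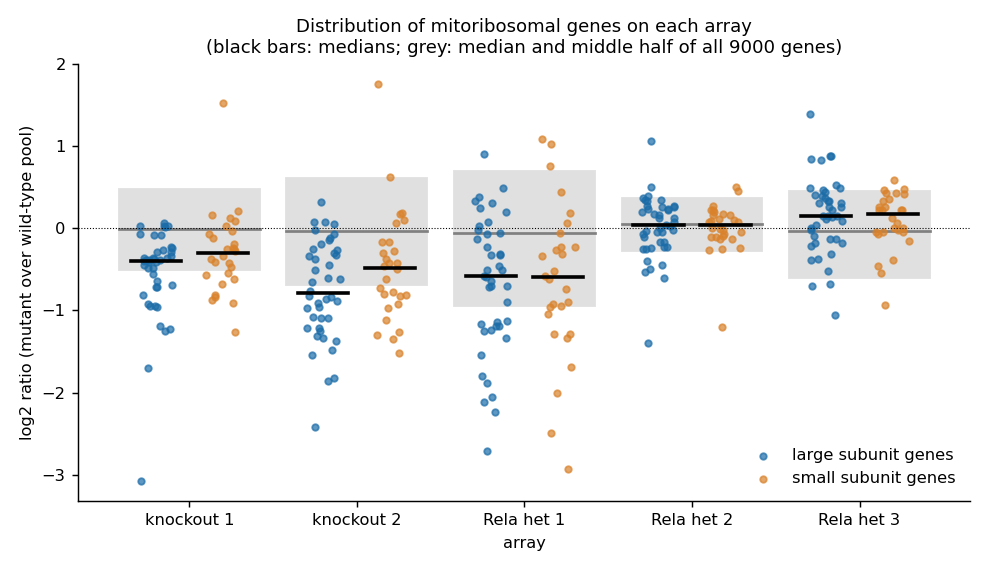
Log2 ratio to the wild-type pool (vertical axis) of 42 large subunit genes (blue) and 28 small subunit genes (orange) on each of the 5 arrays; each point is 1 gene, black bars are the medians of each subunit, and the grey box and line show the range from the lower to the upper quartile and the median of all 9000 genes. The bulk of both subunits lies below 0 on the knockout arrays and on the array labelled heterozygous 1, and around or above 0 on heterozygous arrays 2 and 3.

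In the Sirt6 knockout, 63 of the 70 genes had a mean below the pool and 7 above it, with a median log2 ratio of -0.51, while 51.6% of all genes had a mean below the pool and 48.4% above it, and the median over all genes was -0.03. Both knockout arrays lay below the pool for 53 of the 70 genes, against 41.9% of all genes, and above it for 4, against 39.6%. All 5 arrays lay below the pool for 15 genes, against 9.69% of all genes, and above it for 3, against 11.4%. No single gene passed the test: limma called 0 of the 70 at an adjusted p under 0.05, and 0% of all genes (percent called 0), the smallest adjusted p in the family being 0.0912. At an unadjusted p under 0.05 there were 12 of the 70, or 17.1%, which is below the 20.4% of all genes. Of these 12, 11 were lower and 1 was higher, where 10.6% of all genes were lower and 9.82% higher. Without the array labelled heterozygous 1 the unadjusted count was 22 of the 70, against 29.3% of all genes. The share of all genes thus rose as well. Most members thus lay a little below the pool, and none was told from it singly.

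Within the large subunit, 39 of 42 genes lay below the pool in the knockout mean, with a median of -0.58. Mrpl57, a small mitochondria-specific protein of this subunit, lay at -3.08 and -2.42 on the knockout arrays, at -1.25 on the array labelled heterozygous 1, and at -0.60 and -0.03 on heterozygous arrays 2 and 3. Its knockout mean of -2.75 ± 0.41 (SE, n = 2, limma adjusted p = 0.0912) was the lowest of the family and at percentile 1.3 of all genes. The value of Mrpl57 rests on 1 probe. All 5 arrays were below the pool, the knockout arrays by most. Mrpl49, another mitochondria-specific protein, lay at -1.25 and -1.86 on the knockout arrays and at -1.89, -0.45 and -0.37 on the heterozygous arrays, with a knockout mean of -1.55 ± 0.47 (SE, n = 2, limma adjusted p = 0.154). Here the array labelled heterozygous 1 was as low as the knockout arrays, so the groups overlapped.

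Genes of the central protuberance, the part of the large subunit that faces the head of the small one, ranged from the low end of the family to the level of the pool. Mrpl18, whose bacterial counterpart binds 5S ribosomal RNA, lay at -0.96 and -1.83 on the knockout arrays and at -2.06, -0.16 and 0.22 on the heterozygous arrays (knockout mean -1.40 ± 0.59, SE, n = 2, limma adjusted p = 0.248). Mrpl48, a mitochondria-specific protein of the protuberance, lay at -1.20 and -1.37 on the knockout arrays and at -1.19, -0.53 and -0.69 on the heterozygous arrays (knockout mean -1.28 ± 0.33, SE, n = 2, limma adjusted p = 0.124). Mrpl48 was below the pool on all 5 arrays. One of its 3 probes was blank on the array labelled heterozygous 1, and its 2 full probes averaged -0.74 and -1.26 in the knockout and -1.19, -0.30 and -0.28 in the heterozygous group, so that the groups overlapped. The protuberance proteins Mrpl40, Mrpl46 and Mrpl58 had knockout means of -0.79, -0.51 and -0.30, and Mrpl38 had one of 0.03 with its arrays on both sides of the pool (-0.27 and 0.32). Mrpl58 is the peptidyl-tRNA hydrolase that releases peptides from stalled mitochondrial ribosomes and has become a fixed subunit.

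Around the tunnel through which the new peptide leaves, Mrpl22 lay at -0.95 and -1.48 on the knockout arrays, Mrpl47 at -0.82 and -1.09, Mrpl39 at -0.72 and -0.76, Mrpl17 at -0.36 and -0.27, and Mrpl24 at -0.42 and 0.05. Mrpl23, at 0.02 and 0.08, was the highest large subunit gene in the knockout mean (0.05 ± 0.32, SE, n = 2). Genes of 1 structural region therefore ranged from about the level of the pool to well below it. At the stalks that receive the translation factors, Mrpl12, the counterpart of bacterial L7/L12, lay at -0.34 and -0.19, Mrpl10, which anchors it, at -0.29 and -1.34, Mrpl11 at -0.40 and -0.89, and Mrpl1, of the opposite stalk where used tRNA leaves, at -0.72 and -0.66. In the core near the site of peptide bond formation, Mrpl2 lay at 0.03 and -0.14, Mrpl3 at -0.56 and -1.54, Mrpl16 at -0.37 and -0.45, and Mrpl27 at -0.08 and -0.82. Mrpl32, which is cut by a mitochondrial protease before it can be assembled, lay at -1.71 and -1.31 on the knockout arrays and at -0.51, -1.39 and -0.18 on the heterozygous arrays, with a knockout mean of -1.51 ± 0.40 (SE, n = 2, limma adjusted p = 0.125). That value depends on 1 of its 2 probes, and over the probe measured on all 5 arrays the mean was -0.48.

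Within the small subunit, 24 of 28 genes lay below the pool in the knockout mean, with a median of -0.46. Mrps25, a mitochondria-specific protein, lay at -1.27 and -1.30 on the knockout arrays and at -0.52, 0.00 and 0.23 on the heterozygous arrays, with a knockout mean of -1.28 ± 0.34 (SE, n = 2, limma adjusted p = 0.125). The knockout arrays were alike and below every heterozygous array. On the platform that holds the messenger RNA, Mrps11 had a knockout mean of -1.16, Mrps21 of -0.90, Mrps18b of -0.89, Mrps15 of -0.47 and Mrps6 of -0.08. Of the head, Mrps7 had a knockout mean of -0.33, Mrps10 of -0.07 and Mrps9 of 0.42, while Mrps14, also of the head, had one of 1.64.

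Mrps14, the counterpart of bacterial S14, ran against the rest of the family. It lay at 1.52 and 1.76 on the knockout arrays and at -2.49, -1.21 and -0.46 on the heterozygous arrays. Its knockout mean was 1.64 ± 0.50 (SE, n = 2, limma adjusted p = 0.158) and its heterozygous mean -1.39 ± 0.41 (SE, n = 3, limma adjusted p = 0.322), and the groups did not overlap. Its value rests on 1 probe. The next highest knockout means were Mrps9 (0.21 and 0.62 on the knockout arrays), Mrps34, which is needed for assembly of the small subunit (0.12 and 0.17), and Mrps2 (-0.03 and 0.19). These were 0.42 ± 0.34, 0.15 ± 0.31 and 0.08 ± 0.34 (SE, n = 2), with limma adjusted p-values of 0.504, 0.806 and 0.909, so none was distinguished from the pool.

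**Figure D2:**
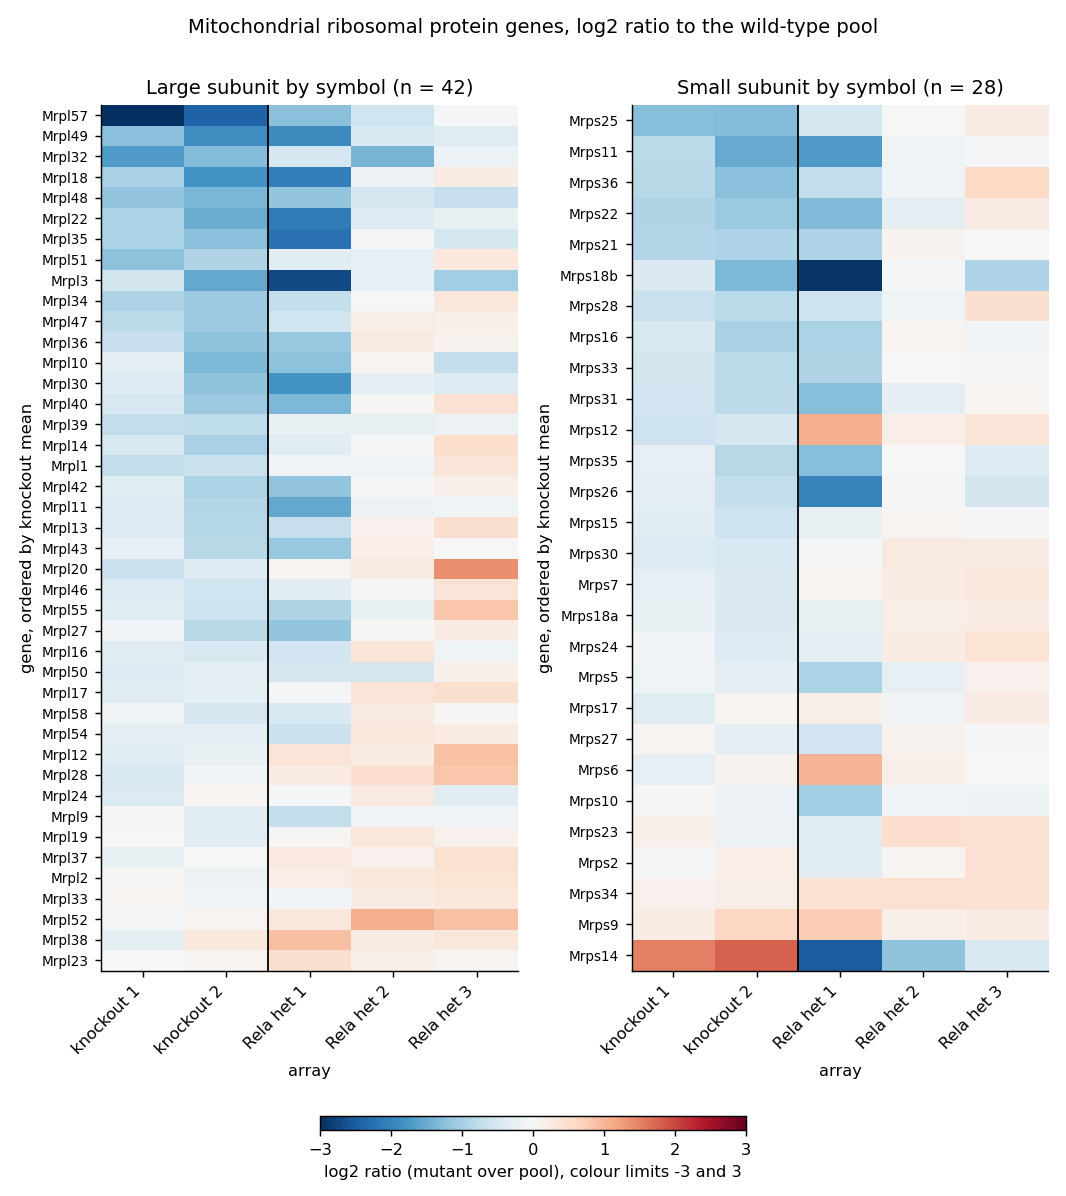
Log2 ratio to the wild-type pool of each of the 70 tested genes (rows, ordered by the knockout mean within each subunit) on each array (columns); blue is below and red above the pool, and the line separates the knockout from the heterozygous arrays. Mrps14 at the foot of the right panel is red on both knockout arrays and blue on all 3 heterozygous arrays, and the strongest blue of the array labelled heterozygous 1 falls on Mrps18b (-2.93) and Mrpl3 (-2.71).

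To show the DNA in front of the genes at the extremes, the 150 bases before the RefSeq start site are printed 5′ to 3′ from GRCm38.p6 for the 2 members with the largest positive difference between the groups, Mrpl57 (chr14:57826089-57826238, plus strand) and Mrps25 (chr6:92184024-92184173, minus strand), and the 2 with the most negative, Mrps14 (chr1:160195065-160195214, plus strand) and Mrps18b (chr17:35916441-35916590, minus strand). Capitals mark a match to 1 of 5 motifs searched on both strands: CCGGAAG (ETS family), the NRF1 motif (GCGC, any 2 bases and GCGC again), CACGTG (E-box), AAGATGGC (YY1) and GGGCGG (Sp family). Mrpl57 has 1 NRF1 match, Mrps14 and Mrps18b each have 2 Sp matches, and Mrps25 has no match in these bases. Of the 12 members named for the difference, 9 had a match there.
Mrpl57: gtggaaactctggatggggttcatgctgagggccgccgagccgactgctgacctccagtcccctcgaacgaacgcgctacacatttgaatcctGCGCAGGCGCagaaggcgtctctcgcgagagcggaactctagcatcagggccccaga
Mrps25: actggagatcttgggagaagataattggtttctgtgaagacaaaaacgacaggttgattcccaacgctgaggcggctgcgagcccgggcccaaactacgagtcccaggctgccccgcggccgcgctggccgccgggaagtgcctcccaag
Mrps14: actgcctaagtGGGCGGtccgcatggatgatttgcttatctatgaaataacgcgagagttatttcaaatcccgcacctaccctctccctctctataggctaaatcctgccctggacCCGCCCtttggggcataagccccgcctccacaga
Mrps18b: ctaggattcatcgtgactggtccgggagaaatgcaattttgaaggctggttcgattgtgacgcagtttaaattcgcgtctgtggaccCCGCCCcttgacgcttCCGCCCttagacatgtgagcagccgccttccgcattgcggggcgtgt

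Promoter windows of 300 bases (250 before and 50 after the start) were available for 65 of the 73 genes, in 71 windows, and were set beside 32851 windows of all genes. The ETS motif was in 33.8% of the members' windows and 8.86% of all windows. The YY1 motif was in 16.9% against 2.75%, the NRF1 motif in 18.3% against 6.23%, the Sp motif in 53.5% against 35.7% and the E-box in 8.45% against 7.15%. Some genes have several windows: the 6 member windows with an E-box belong to 4 genes. Counted by gene, the E-box was in 4 of 65 members and in 2187 of 27025 genes, so the members were not richer in it. ETS factors of the GABP type, NRF1, YY1 and Sp1 are known regulators of nuclear genes for mitochondrial proteins. The members' windows were also richer in G and C, with a median of 58.3% against 52.7%, which bears on how often such letters occur. By subunit the ETS motif was in 31.1% of the large and 38.5% of the small subunit windows, and the NRF1 motif in 22.2% and 11.5%. Windows of members whose knockout arrays lay below every heterozygous array held the ETS motif in 25% and the Sp motif in 64.3%, and windows of members whose groups overlapped held them in 40% and 47.5%. Counted by gene, the Sp motif was in 14 of 23 and 18 of 39 of these members. A match is a description of these letters and not a site of binding.

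In the Sirt6 knockout spleens heterozygous for Rela, 45 of the 70 genes had a mean below the pool and 25 above it, with a median of -0.10, beside 51.2% below, 48.8% above and a median of -0.02 over all genes. Limma called 0 of the 70, where it called 0.322% of all genes. At an unadjusted p under 0.05 there were 5 of the 70, or 7.14%, against 13.1% of all genes. Of these 5, 4 were lower (8.00% of all genes) and 1 was higher (5.06% of all genes). All 3 heterozygous arrays were below the pool for 18 genes (15.1% of all genes) and above it for 14 (16.5% of all genes). The median changed sign with the arrays used: it was 0.11 without the array labelled heterozygous 1, -0.19 without heterozygous array 2 and -0.29 without heterozygous array 3. The group has no single level for this family, since its arrays lay on both sides of the pool.

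The highest heterozygous means were all of genes whose knockout arrays were near the pool or below it. Mrpl52, a mitochondria-specific large subunit protein, lay at -0.07 and 0.08 on the knockout arrays and at 0.33, 1.06 and 0.88 on the heterozygous arrays (heterozygous mean 0.76 ± 0.28, SE, n = 3, limma adjusted p = 0.37). Mrpl20, which bacteria share, had a heterozygous mean of 0.58 ± 0.34, Mrps12 of the decoding centre 0.55 ± 0.29, Mrpl28 0.53 ± 0.27, Mrpl12 0.50 ± 0.27 and Mrpl38 0.49 ± 0.29 (SE, n = 3). All 3 heterozygous arrays were above the pool in each of these 6 genes, which a pick by the highest mean favours. The lowest heterozygous means, apart from Mrps14, were those of Mrpl3 (-1.34 ± 0.49), Mrps18b (-1.31 ± 0.55), Mrpl35 (-0.93 ± 0.44), Mrpl22 (-0.91 ± 0.42) and Mrpl49 (-0.90 ± 0.38) (SE, n = 3), with limma adjusted p-values from 0.37 to 0.408. Mrpl3 lay at -2.71 on the array labelled heterozygous 1 and at -0.25 and -1.05 on the other heterozygous arrays. Mrps18b lay at -2.93, -0.07 and -0.93 on the same arrays, Mrpl35 at -2.23, -0.04 and -0.52, and Mrpl22 at -2.11, -0.40 and -0.22. In each of these the array labelled heterozygous 1 was the lowest of all 5, which a pick by the lowest heterozygous mean favours.

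Arrays of the same group lay closer together for the family than over all genes. A range over 3 arrays is wider than a gap between 2 at equal spread, so these measures do not compare the groups. The distance between the highest and the lowest heterozygous array had a median of 0.92 over the 70 genes (1.28 over all genes) and exceeded 1 in 32 of them, or 45.7% (64.4% of all genes). The gap between the knockout arrays had a median of 0.30 (0.35 over all genes) and exceeded 1 in 1 gene, or 1.43% (8.44% of all genes). The array labelled heterozygous 1 was below both other heterozygous arrays in 60 of the 70 genes, against 40.1% of all genes. It was the lowest of the 5 arrays in 29 of the 70 genes, against 28.7% of all genes. Knockout array 2 was lowest in 23 (13.3% of all genes) and knockout array 1 in 17 (16.4%). Heterozygous array 2 was lowest in 1 gene (11.5% of all genes) and heterozygous array 3 in 0 (30.2%).

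Set directly against each other, 58 of the 70 genes had a higher mean in the heterozygous than in the knockout group and 12 a lower one, with a median difference of 0.38, beside 51.5% higher, 48.5% lower and a median of 0.03 over all genes. The pool and any dye bias cancel in this difference. Limma called 0 of the 70 and 0% of all genes (percent called 0). At an unadjusted p under 0.05 there were 4 members, or 5.71%, below the 8.82% of all genes. Of these 4, 3 were higher (3.48% of all genes) and 1 was lower (5.34% of all genes). Without the array labelled heterozygous 1 the median difference was 0.61, and 0 members were called. An unadjusted p under 0.05 was then found for 13 of the 70, against 15.4% of all genes, so that share rose as well. Without knockout array 2 the median difference was 0.275, the lowest with any 1 array left out.

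Both knockout arrays lay below all 3 heterozygous arrays in 26 of the 70 genes, against 14.4% of all genes, and above them in 1, Mrps14, against 13.8% of all genes. Of the 26, 18 are large and 8 small subunit genes by symbol. Over the probes with a value on all 5 arrays the count was 23 (14.1% of all genes), since Mrpl19, Mrpl47 and Mrpl48 then overlapped. Without the array labelled heterozygous 1 the 2 remaining heterozygous arrays were both above both knockout arrays in 51 of the 70 genes, where 29.0% of all genes showed this order. The large subunit had 39 of 42 genes higher in the heterozygous mean, with a median difference of 0.44, and the small subunit 19 of 28, with a median of 0.36; whether the subunits differ was not tested.

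**Figure D3:**
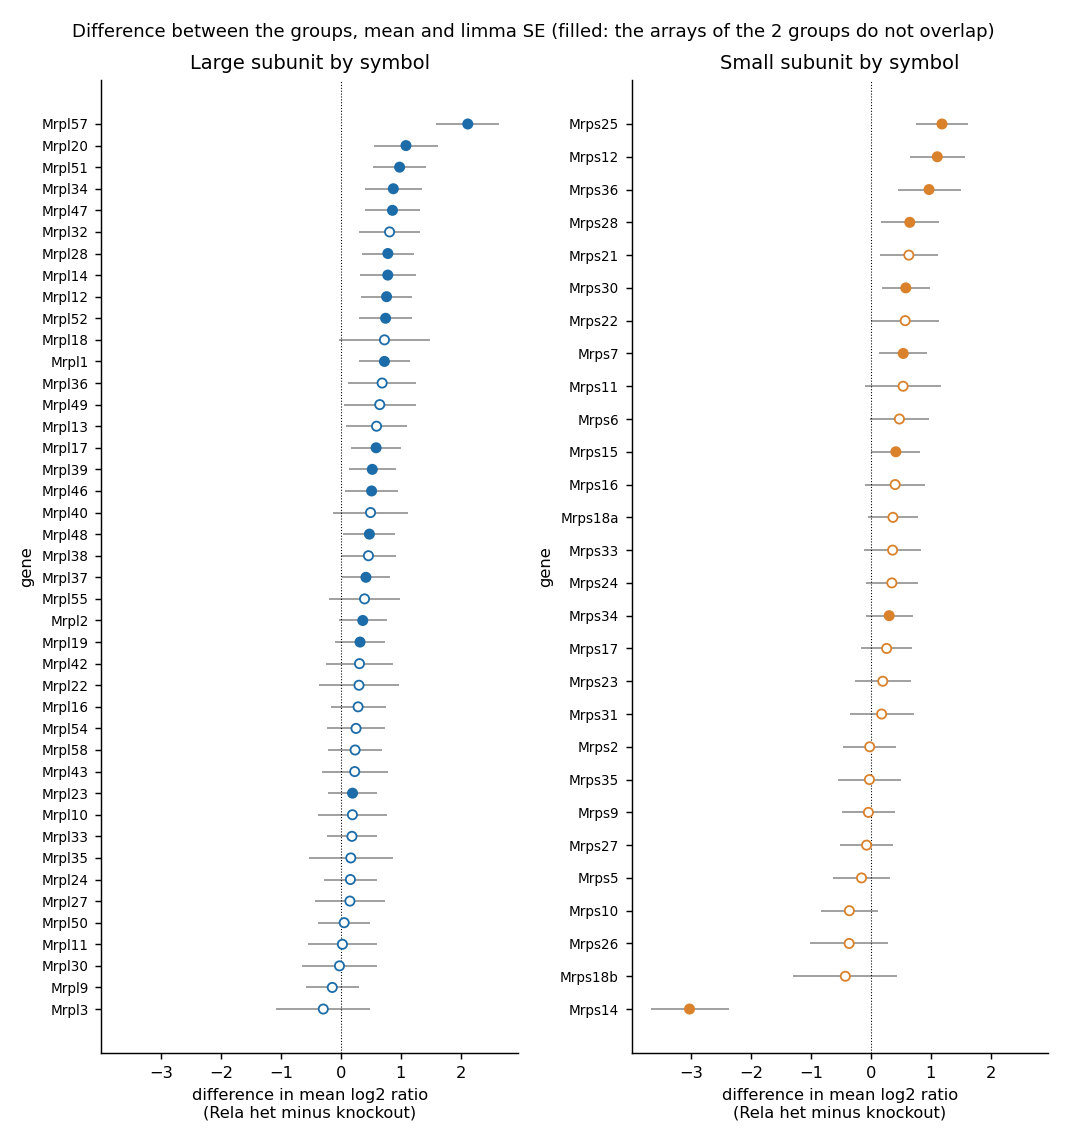
Difference in mean log2 ratio between the heterozygous and the knockout group (horizontal axis, heterozygous minus knockout) for each gene (vertical axis, ordered by the difference), with bars of 1 limma standard error; filled points are genes in which the arrays of the groups do not overlap. Most points lie to the right of 0, Mrpl57 (2.12) lies farthest right and Mrps14 (-3.03) farthest left.

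The largest positive difference was that of Mrpl57, at 2.12 ± 0.53 (SE, n = 3 and 2, limma adjusted p = 0.35), percentile 98.5 of all genes, with no overlap between the groups. Mrps25 followed at 1.19 ± 0.44 (adjusted p = 0.495). Mrps12, the counterpart of the bacterial protein in which streptomycin resistance arises, lay at -0.62 and -0.50 on the knockout arrays and at 1.09, 0.19 and 0.36 on the heterozygous arrays, a difference of 1.11 ± 0.46 (SE, n = 3 and 2, limma adjusted p = 0.565). Here the array labelled heterozygous 1 was the highest of the 5. Mrpl20 lay at -0.64 and -0.38 on the knockout arrays and at 0.08, 0.27 and 1.39 on the heterozygous arrays, a difference of 1.09 ± 0.54 (adjusted p = 0.626). Mrpl51, a mitochondria-specific large subunit protein, lay at -1.23 and -0.91 and at -0.33, -0.25 and 0.30, a difference of 0.98 ± 0.44 (adjusted p = 0.587). In both, every heterozygous array was above both knockout arrays. Mrps36 had a difference of 0.97 ± 0.53 (adjusted p = 0.65); its product, despite the symbol, is now known as a subunit of the 2-oxoglutarate dehydrogenase complex and not of the ribosome.

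The most negative difference was that of Mrps14, at -3.03 ± 0.65 (SE, n = 3 and 2, limma adjusted p = 0.267), percentile 0.6 of all genes. The others were small against their errors: Mrps18b at -0.43 ± 0.87, Mrps26 at -0.36 ± 0.66, Mrps10 at -0.36 ± 0.48, Mrpl3 at -0.29 ± 0.78 and Mrps5 at -0.16 ± 0.48 (SE, n = 3 and 2, limma adjusted p-values from 0.879 to 0.958). In these 5 genes the array labelled heterozygous 1 was the lowest of all 5 arrays, which a pick by the most negative difference favours. Without that array the differences of Mrps18b (0.38), Mrps26 (0.21), Mrpl3 (0.40) and Mrps5 (0.14) were on the other side of 0.

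Medians by the evolutionary origin of the proteins, and by a revised assignment to subunits, were close to each other; their differences were not tested. The 43 tested genes with a bacterial counterpart had a median of -0.47 in the knockout and 0.37 for the difference, and the 26 mitochondria-specific genes had -0.54 and 0.39. Mrps30 and Mrps18a have small subunit symbols but sit in the large subunit by structure. With these moved and Mrps36 set aside, the large subunit (44 genes) had a median of -0.53 in the knockout and 0.44 for the difference, and the small subunit (25 genes) had -0.47 and 0.31.

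Genes with several probes allowed a look at how well a value is measured. Of the 22 members with values from more than 1 probe, 7 had probe means of opposite sign over the arrays: Mrpl13, Mrpl19, Mrpl33, Mrpl37, Mrpl47, Mrps15 and Mrps5. In 14 of the 22 the widest gap between probes fell on the array labelled heterozygous 1. Mrps5, the counterpart of a bacterial protein at the messenger RNA entrance, was at -0.53, -1.67, -3.18, -0.35 and -0.64 with probe 12140 and at 0.41, 0.98, 0.55, -0.21 and 0.61 with probe 17146, in the order knockout 1 and 2 and heterozygous 1 to 3. These probes gave opposite signs on 4 of the 5 arrays, and the probes of Mrps5, with differences between the groups of -0.29 (12140), -0.38 (17146) and 0.19 (37947), do not settle the sign of the averaged difference given above.

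Mrpl47 had 2 probes below the pool on the knockout arrays (-0.74 and -0.75, and -0.90 and -1.39), while probe 17127 had values on 3 arrays only, -1.13 on knockout array 2 and 1.35 and 1.80 on heterozygous arrays 1 and 2. Its difference between the groups was 0.86 ± 0.46 (SE, n = 3 and 2) over all probes, and 0.37 and 0.15 with each full probe. Mrpl32 was at -2.95, -2.14, -2.60 and -0.85 with probe 14974, blank on the array labelled heterozygous 1, and between -0.51 and 0.49 on the 5 arrays with probe 37966. In contrast, the 3 probes of Mrps25 gave differences of 1.14 to 1.27 and the 2 probes of Mrps12 1.00 and 1.21. Among the 19 members with at least 2 probes measured on all 5 arrays, the difference between the groups had opposite signs between probes in 2, and the knockout mean in 4.

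**Figure D4:**
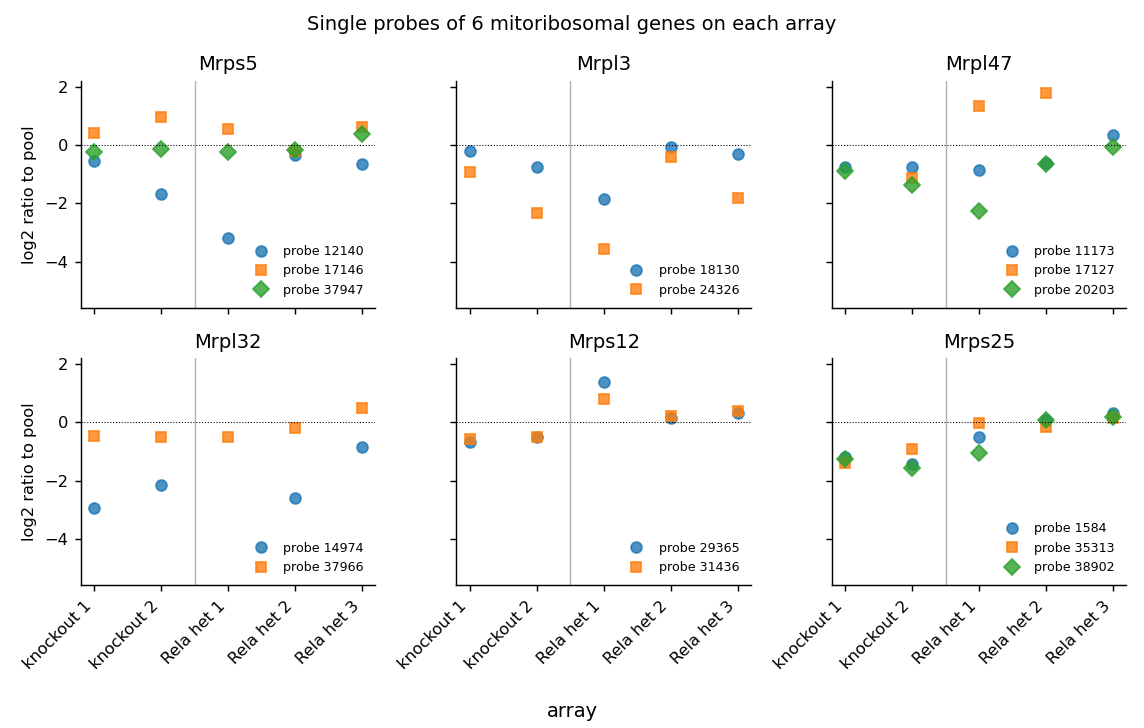
Log2 ratio to the pool (vertical axis) of the single probes of 6 genes on each array (horizontal axis); each symbol is 1 probe, and the grey line separates the groups. The probes of Mrps12 and Mrps25 lie close together on most arrays, those of Mrps5 and Mrpl3 spread widest on the array labelled heterozygous 1, and 1 probe of Mrpl32 lies far below the other.

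The other genes of mitochondrial protein synthesis were read from lists written from general knowledge, and limma called 0 members of any of them in any of the 3 comparisons. Of 14 translation factors, 11 were below the pool in the knockout mean (median -0.43) and 11 were higher in the heterozygous mean (median difference 0.30). Mtif3, an initiation factor, lay at -1.20 and -1.998 on the knockout arrays and at 0.05, 0.20 and -0.01 on the heterozygous arrays, a difference of 1.68 ± 0.45 (SE, n = 3 and 2, limma adjusted p = 0.361). Taco1, which activates translation of the cytochrome c oxidase subunit 1 messenger, lay at -1.20 and -1.09 and at -0.16, -0.06 and 0.27, a difference of 1.16 ± 0.41 (limma adjusted p = 0.481). In both genes all 3 heterozygous arrays were above the knockout arrays, an order found in 4 of the 14 factors and in 14.4% of all genes. Both were picked by moderated t, so their order of arrays is not a separate result. Of 19 genes for charging mitochondrial tRNA, 10 were below the pool in the knockout (median -0.19) and 10 higher in the heterozygous mean (median difference 0.12), and Nars2, the asparaginyl-tRNA synthetase, lay at 2.07 and 2.34 on the knockout arrays and at -0.22, -3.29 and 0.72 on the heterozygous arrays. Of 19 tested assembly factors, 12 were below the pool in the knockout (median -0.13) and 11 higher in the heterozygous mean (median difference 0.06). Among them Tfb1m, which methylates the small subunit ribosomal RNA, lay at -1.57 and -1.47 on the knockout arrays and at -0.96, -0.41 and 0.54 on the heterozygous arrays, and Mrm1, which methylates the large subunit RNA, at -0.95 and -1.38 and at -0.04, -0.56 and 0.05.

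Of 13 genes for mitochondrial transcription and RNA processing, 9 were below the pool in the knockout (median -0.27) and 9 higher in the heterozygous mean (median difference 0.13), with Elac2, which trims the 3′ ends of tRNA, at -0.46 and -1.83 on the knockout arrays and at 0.62, 0.17 and 0.41 on the heterozygous ones. Of 19 tested import and chaperone genes, 14 were below the pool in the knockout (median -0.31) and 18 higher in the heterozygous mean (median difference 0.38). The chaperonin gene Hspd1 had a knockout mean of -1.02 ± 0.35 and a difference of 0.90 ± 0.45, and its partner Hspe1 had -0.40 ± 0.42 and 1.32 ± 0.55 (SE). The 3 measured ribosome subunit genes without an Mrp symbol gave knockout means of -0.52 (Chchd1), -0.05 (Ptcd3) and 0.03 (Gadd45gip1). Of 8 regulators of such genes 6 were below the pool in the knockout (median -0.16). The lowest knockout means were those of Sp1 (-1.32 ± 0.44), Gabpb1, a subunit of GABP (-0.88 ± 0.34), and Gabpa (-0.68 ± 0.45). Myc was at -0.30 ± 0.34, Yy1 at -0.03 ± 0.47 and Nrf1 at -0.03 ± 0.33. The 2 above the pool were Esrra at 0.32 ± 0.37 and Ppargc1b at 0.96 ± 0.43 (SE, n = 2 for each regulator).

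The oxidative phosphorylation genes, whose mitochondrial partners the mitoribosome makes, had a similar order of arrays. Their medians over 76 genes were -0.19 and -0.50 on the knockout arrays, -0.53 on the array labelled heterozygous 1, and 0.17 and 0.41 on heterozygous arrays 2 and 3. In the knockout 61 of the 76 were below the pool (median -0.32), and 70 of the 76 were higher in the heterozygous mean (median difference 0.40). Genes of the cytosolic ribosome lay on the other side of the pool. Their medians over 71 genes were 0.75, 0.47, 0.65, 1.42 and 1.06 on the 5 arrays in the same order, with 54 of 71 above the pool in the knockout and 62 of 71 higher in the heterozygous mean (median difference 0.58), and 6 of the 71 passed the test as higher in the heterozygous group against the pool, where 0.322% of all genes passed. In that comparison limma called 0 genes of any kind with robust eBayes, with single probes, with the looser filter on blanks, or without any 1 array other than heterozygous array 2, and 3 without that one. The subunits of the ribosomes of cytosol and mitochondria were thus on opposite sides of the pool in the knockout and both had higher means in the heterozygous group; whether the lists differ was not tested.

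**Figure D5:**
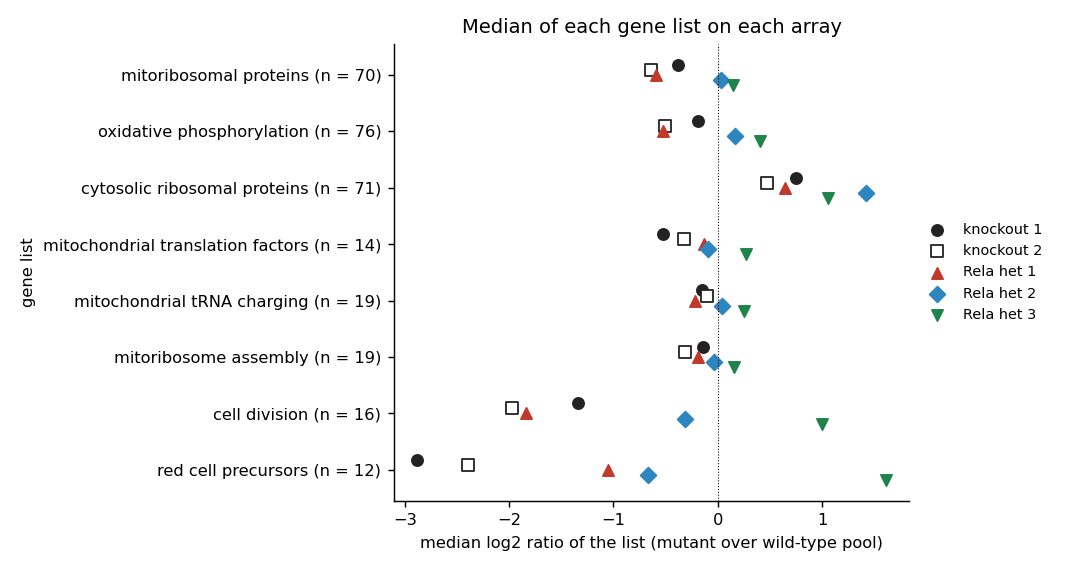
Median log2 ratio to the pool (horizontal axis) of 8 gene lists (vertical axis, with the number of genes) on each array, 1 symbol per array. The mitoribosomal and oxidative phosphorylation lists run in a similar order over the arrays, the cytosolic ribosomal list lies to the right of 0 on every array, and the red cell list spans the widest range, from -2.88 on knockout array 1 to 1.61 on heterozygous array 3.

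Markers of cell types and of dividing cells moved over the same arrays. All 12 red cell precursor genes measured were below the pool in the knockout mean, and their medians were -2.88 and -2.40 on the knockout arrays, -1.06 on the array labelled heterozygous 1, and -0.66 and 1.61 on heterozygous arrays 2 and 3. All 16 cell division genes were below the pool in the knockout mean, with medians of -1.34, -1.98, -1.84, -0.31 and 1.00 in that order. The cell division list had the array labelled heterozygous 1 beside the knockout arrays, as the mitoribosomal genes did. The 10 neutrophil genes were all above the pool in the knockout mean (2.12, 0.75, -0.94, 1.07 and -0.65), and of 6 macrophage genes 4 were (1.49, 1.13, -0.08, 1.03 and -0.63). The 8 B cell genes were all below it (-0.83, -1.39, -0.27, -0.37 and -1.17), the 8 T cell genes were spread around it (0.35, -0.03, 0.70, 0.83 and -0.76), and of 7 stromal genes 4 were below it (-0.44, -0.75, -1.53, -1.53 and -1.90). The 6 genes of exocrine pancreas, a tissue that adjoins the spleen, were all below the pool in the knockout mean (-2.26, -2.74, 0.84, -0.28 and -1.40). The part of each of these in the mitoribosomal values was not tested.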

How the data were processed

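Gene expression was measured on 5 2-colour arrays (2 Sirt6-/- and 3 Sirt6-/- RelA+/- spleens against a wild-type spleen pool). Total RNA of the mutant spleens was extracted with TRIzol, per the labels' protocols. The table deposited by the authors holds 1 value per spot and array, read as log2 ratios; no source used here gives the log base, the normalization or the rule behind blank cells. Arrays hold no counts, and their number limits the precision. The labels give no batch, and the mutant RNA carried Cy5 throughout.

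Values were centred on each array's median and averaged per gene symbol, with old symbols updated through the Entrez ID (GRCm38.p6 gene table). The 9000 genes measured on every array entered a single limma fit (version 3.58.1, R 4.3.3), with a mean per group (3 residual and 3.63 prior degrees of freedom), 2-sided, Benjamini-Hochberg over all genes at 0.05. The pool is 1 control sample, so the variation of wild-type spleens is not part of tests against it. The p-values measure the spread between these samples, described as biological replicates. An SE is limma's moderated error. Fits were tested on simulated data.

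The members and lists were chosen with earlier results of these data known. Named in each comparison are the 6 highest and 6 lowest means, any gene past the threshold, members with probes of opposite sign, and up to 2 genes per pathway list by moderated t; genes named for their role in the ribosome were added after their values were seen. Promoters came from RefSeq (GRCm38.p6).

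The alternatives were values as deposited, quantile normalization, equal median absolute deviation, a filter that asks for 2 arrays per group, single probes, the least variable 25% of genes left out, robust eBayes, the group's own arrays, a block on the replicate number, subunits by structure, each array left out, heterozygous arrays 1 and 3 left out and, chosen after seeing the data, only probes with a value on all 5 arrays. Figures were drawn with matplotlib 3.10.9.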

Additional observations from a re-analysis of the deposited data

Results flagged for a closer look

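In 7 members, both knockout arrays lay on one side of the pool and all 3 heterozygous arrays on the other. The same held in 2 of the pathway list genes picked by moderated t, and the rest of those lists was not searched. The share of all genes with this pattern was not counted. The wider condition, groups that do not overlap, held in 14.4% of all genes with the knockout arrays lower and 13.8% with them higher. The difference (heterozygous minus knockout) was 0.76 for Mrpl12 (limma adjusted p = 0.672), 1.09 for Mrpl20 (0.626), 0.79 for Mrpl28 (0.658), 0.42 for Mrpl37 (0.832), 1.11 for Mrps12 (0.565), 0.54 for Mrps7 (0.769) and -3.03 for Mrps14 (0.267). It was 1.55 for Elac2 (0.468) and 1.32 for Hspe1 (0.56). None of these passed the test. Except in Mrps14, the knockout arrays were below the pool and the heterozygous arrays above it. The rule that picked these genes fixes the side of the array labelled heterozygous 1, so its place here is not a separate result.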

How the results depend on the processing

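The number of members past the threshold was 0 in every comparison under the values as deposited, quantile normalization, equal deviation, the looser filter on blanks, single probes, robust eBayes, full probes only and each array left out. It was above 0 in 4 settings. Leaving out the 25% of genes with the lowest variance kept 41 members, and it was 1 in the knockout (Mrpl57, adjusted p = 0.000903) and 1 in the difference (Mrps14, adjusted p = 0.0196), where 9.50% and 2.00% of genes were called; the knockout median was -0.741 (small subunit -0.721), and the knockout arrays were below every heterozygous array in 14 of the 41 (14.3% of genes). With the knockout arrays alone it was 22, at 36.9% of genes called, and this rests on the spread between 2 arrays. With heterozygous arrays 1 and 3 left out the knockout fit was the same one, since the 1 heterozygous array left adds nothing to the spread. For the knockout these 2 settings are therefore 1 result. The second of them had 60 members with the knockout arrays lowest (48.6% of genes). With the replicate number as a block it was 1 in the difference (Mrps14, -3.49, adjusted p = 0.0489, 0.467% of genes called). Same-numbered arrays of the groups deviated from their group means in opposite ways (r = -0.41 and -0.40). The deviations of the 2 knockout arrays mirror each other by construction, so these values cannot tell whether the numbers pair the samples.

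With each array left out in turn, the members with the knockout arrays lowest ranged from 27 to 51. The 27 came without heterozygous array 3, where 21.7% of all genes showed this order. The 51 came without the array labelled heterozygous 1, where 29% of all genes did. Over the arrays left out, that share ran from 20.7% to 29%, against 14.4% with every array kept. The share of all genes thus rose as well, and the counts cannot be set directly against the 26 with every array kept. The knockout median ranged from -0.639 to -0.384 (large -0.792 to -0.396, small -0.481 to -0.304), the heterozygous median from -0.287 to 0.113 (large -0.287 to 0.137, small -0.318 to 0.067) and the difference from 0.275 to 0.605 (large 0.322 to 0.704, small 0.215 to 0.505). Of 555 values of named genes under these alternatives, 13 lay on the other side of 0, in 6 genes. The cause of these shifts was not tested, beyond the fewer genes or arrays that a setting leaves.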
